A study of Mus musculus with 3 samples.

Results

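The cells described here are liver T cells that carried transcripts of the chemokine receptor Cxcr6 and none of the coreceptor genes Cd4, Cd8a and Cd8b1. A barcode of the single-cell libraries was a member when it held at least 200 genes, at most 20% mitochondrial transcripts, at least 2 UMIs (unique molecular identifiers, tags by which a captured transcript is counted once) over Cd3d, Cd3e, Cd3g and Trac, at least 1 Cxcr6 UMI, and 0 UMIs of Cd4, Cd8a, Cd8b1, the B cell gene Cd79a and the Kupffer cell gene Clec4f. Of 28002 barcodes, 20913 passed the limits on genes and mitochondrial transcripts, and 520 of those were members. They came from 3 droplet libraries of liver non-parenchymal cells, the fraction left once most hepatocytes are removed, taken after perfusion from female Balb\c mice. The control mice received PBS and were labelled 8 weeks old. The other mice received an orthotopic injection of 4T1 cells, a mammary carcinoma line, and their livers were taken 4 days later (labelled 8 weeks) or 21 days later (labelled 11 weeks). Each group was 1 library, the number of mice behind a library and the collection day of the control were not stated, and no genetic change was listed for any group. There were 160 members in the control, 164 on day 4 and 196 on day 21. The values that chose the members, those of the T cell, coreceptor and Cxcr6 genes, are given only as a description.

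CXCR6 is the receptor for CXCL16, a chemokine that liver sinusoidal endothelium and macrophages display, and it holds T cells inside the sinusoids. In the mouse liver the best known CXCR6-bearing cells are invariant natural killer T (NKT) cells, which recognise lipids on CD1d through a near-constant alpha beta receptor, depend on the transcription factor PLZF (gene Zbtb16) and often lack both coreceptors. Resident memory T cells, gamma delta T cells and type 1 innate lymphoid cells (ILC1) of the liver can also carry CXCR6. The beta chain of the IL-2 and IL-15 receptors, encoded by Il2rb, is shared by these populations. The candidate naming of the members as NKT and resident T cells was therefore set against receptor, regulator and effector genes that the rule did not use.

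The members were shallower at day 21. Their median was 3956.5 UMIs and 1608 genes in the control, 4079 UMIs and 1672 genes at day 4, and 1827.5 UMIs and 949.5 genes at day 21, and their summed UMIs were 669847, 739035 and 536218. Shares of cells with a UMI are therefore also given after each barcode was thinned to 1000 UMIs, which left out 4, 1 and 5 members. The members also differed in transcripts of another cell type. A list of 9 neutrophil genes, such as S100a8 and S100a9, which encode the calprotectin subunits, summed to 2.99 counts per 1000000 UMIs (CPM) over the control members, 287 CPM at day 4 and 77625 CPM at day 21. At day 21, 16 of the 196 members drew more than 5% of their UMIs from the marker list of another cell type, against 3 of 164 at day 4 and 0 in the control. Those 16 had a median of 7755 UMIs, of which a median of 33.1% (range 12.6 to 47.5) were neutrophil transcripts. The other 180 had a median of 1794.5 UMIs and 0.205% (0 to 4.74). Scrublet, a doublet caller, marked 16 members at day 21, 10 of them among the 16 just described. It marked 4 at day 4 and 0 in the control. T cell genes were present in both sets, with Trbc2 in 15 of the 16 and in 165 of the 180. Levels at day 21 are therefore given for all members or for members with at most 5% of their UMIs from any 1 of 8 other-cell lists, a limit chosen after the data were seen, and the main shares of cells are given with and without it. Barcode sequences found in more than 1 library numbered 1, 3 and 2 among the members.

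**Figure D1:**
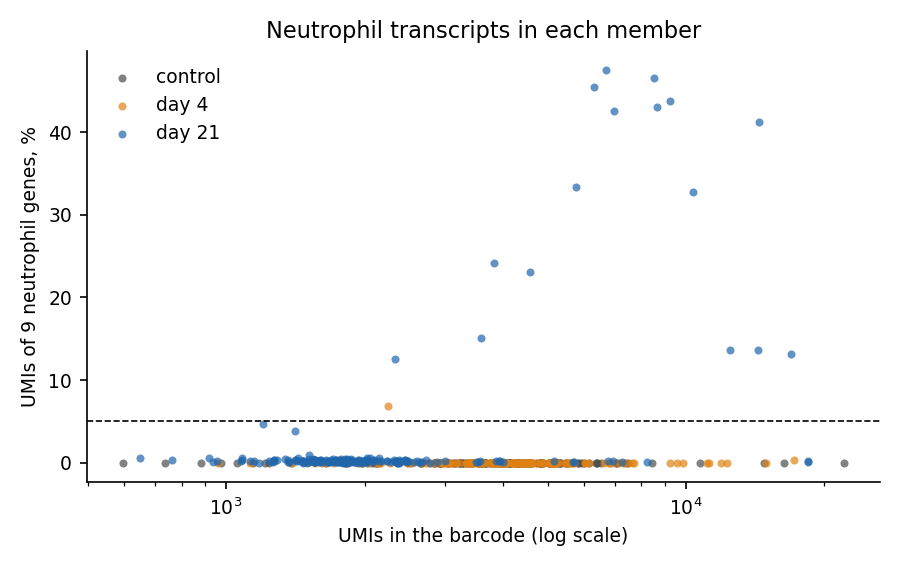
Each point is 1 member, coloured by library. The x axis gives its UMIs on a log scale and the y axis the percent of its UMIs from 9 neutrophil genes, with a dashed line at 5%. In the control and at day 4 nearly all members lie near 0, while at day 21 a group of 16 lies between 12.6 and 47.5%.

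The marker genes given for the members were checked first. Cd3e, a signalling chain of the T cell receptor and part of the selection, was detected in 84.4% of control members (95% interval 77.8 to 89.6), 73.8% at day 4 (66.4 to 80.3) and 68.4% at day 21 (61.4 to 74.8). All intervals given here cover counting error only, since 1 library per group carries no information on the spread between mice. Il2rb, which the rule did not use, was detected in 92.5% (87.3 to 96.1), 93.9% (89.1 to 97.0) and 87.2% (81.7 to 91.6) of members, and in 75.6, 68.1 and 66.0% after thinning. Among the 180 day 21 members at or below 5% other-cell transcripts, 157 held Il2rb (87.2%) and 124 held Cd3e (68.9%). In barcodes with no T cell gene, which should mostly lack it, Il2rb was detected in 2.98, 1.82 and 1.28%, so the members stood far above free RNA. In CD8 T cells of the same libraries the shares were 37.1, 42.9 and 40.6%. Some genes that define other cells had 0 UMIs in all members, such as Ms4a1 of B cells and Marco of Kupffer cells, and Foxp3, which defines regulatory T cells, was found in 1 member at day 21 and 0 elsewhere. Low levels of many others were present. Of 9 Kupffer cell genes 6, 8 and 8 were detected in at least 1 member (41.8, 81.2 and 185 CPM in sum), of 9 endothelial genes 8, 9 and 8 (570, 415 and 442 CPM), of 9 hepatocyte genes all 9, and of 7 stellate cell genes 7, 7 and 6. The summed stellate cell list was 679 CPM in control members, 71.7 at day 4 and 470 at day 21, the hepatocyte list was 881, 789 and 300 CPM, and the erythroid list 64.2, 3342 and 1069 CPM. The erythroid sum at day 4 was 179 CPM without the 3 members above 5%.

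At the edge of the gate, 6, 4 and 13 members held exactly 2 UMIs of the T cell genes, and Il2rb was found in 6, 4 and 8 of them. Just outside, 1, 6 and 10 barcodes held 1 such UMI. Members with a single Cxcr6 UMI numbered 46, 26 and 63, and 91.3, 88.5 and 87.3% of them held Il2rb, against 93.0, 94.9 and 87.2% of members with more. Absence of a coreceptor transcript is a weak criterion at this depth: of all Cxcr6-positive T cells (221, 259 and 255), 53, 73 and 38 held Cd4 alone and 8, 20 and 20 held Cd8 genes alone. Among the deeper Cxcr6-positive T cells, those with 5000 UMIs or more, members still made up 35 of 55 in the control, 46 of 86 on day 4 and 21 of 29 on day 21. Of those deep members, 0, 2 and 12 exceeded 5% other-cell transcripts, so only 9 deep members without them remained at day 21. Members and T cells whose coreceptor transcript was not captured cannot be told apart by the gate.

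Members were 3.38% of kept cells in the control (2.88 to 3.93), 2.98% at day 4 (2.54 to 3.46) and 1.84% at day 21 (1.59 to 2.11). The day 4 share was 0.881 times the control share (0.711 to 1.09), an interval that includes 1. The day 21 share was 0.543 times the control share (0.442 to 0.667). It was 0.499 (0.405 to 0.616) when only members with at most 5% other-cell transcripts were counted over all kept cells. The day 21 denominator was 10670 kept cells against 4734 in the control, so a share of all cells can be lower without fewer members in the liver. Relative to T cells the picture was different. Members made up 160 of 668 T cells in the control (24.0%, 20.8 to 27.4), 164 of 539 at day 4 (30.4%, 26.6 to 34.5) and 196 of 1090 at day 21 (18.0%, 15.7 to 20.4). When cells above 5% other-cell transcripts were left out of numerator and denominator, the shares were 24.1, 30.6 and 30.8%, and the day 21 ratio to control moved from 0.751 (0.624 to 0.903) to 1.28 (1.07 to 1.53). With those cells the day 21 share of T cells was below the control and without them above it. The ratio was also 1.35 (1.07 to 1.70) after thinning to 1000 UMIs and 1.03 (0.853 to 1.24) with at least 3 T cell gene UMIs. It was below 1 in the other alternatives run. Among these it was 0.421 when the members, but not the T cells of the denominator, were limited to under 3 other-cell marker UMIs. Of the 678 T cells without Cxcr6, Cd4 and Cd8 at day 21, 478 exceeded 5%. With 1 library per group no test between conditions is possible, and none was made.

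**Figure D2:**
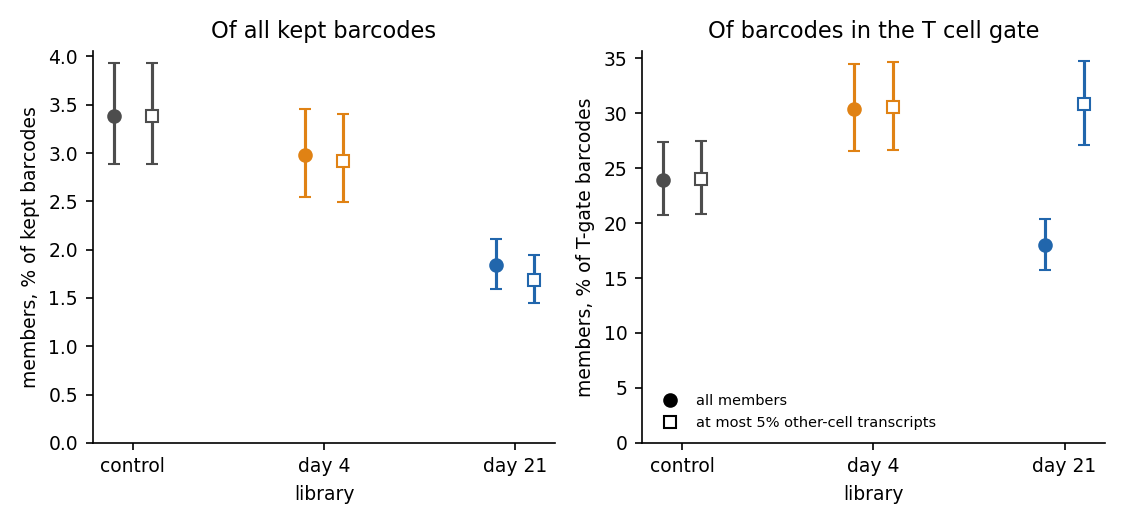
Members as a percent of all kept cells and of T cells in each library (y axes), with 95% Clopper-Pearson intervals; filled circles are all members and open squares leave out cells above 5% other-cell transcripts. The day 21 share of kept cells is 1.84% with and 1.69% without such members, over the same kept cells. The day 21 share of T cells is 18.0% with and 30.8% without those cells, there left out of numerator and denominator.

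Most members carried transcripts of a beta chain constant gene of the T cell receptor. The beta chain constant gene Trbc2 was detected in 96.3, 93.9 and 91.8% of control, day 4 and day 21 members, against 34.3, 36.4 and 27.6% of NK and ILC1 cells, here the barcodes with no T cell gene and at least 2 UMIs over Ncr1, Klrb1c and Eomes. Trbc1 and Trbc2 are close copies, so reads may be split between them. Trac, the alpha chain constant gene and part of the selection, was found without the delta chain constant gene Trdc in 104 of 160, 93 of 164 and 98 of 196 members (65.0, 56.7 and 50.0%). Trdc without Trac was found in 18, 26 and 10 (11.2, 15.9 and 5.10%), both genes in 5, 6 and 1, and neither in 33, 39 and 87. The set with neither gene was largest in the shallow day 21 library. With the 5% limit the day 21 counts were 89, 9, 1 and 81 of 180, in the same order. Over all members Trdc was detected in 14.4% (9.34 to 20.8), 19.5% (13.7 to 26.4) and 5.61% (2.83 to 9.82), and in 8.97, 12.9 and 4.19% after thinning, with 5.56% at day 21 under the limit, where Trbc2 was in 165 of 180. Trbc1 or Trbc2 was found in 18 of 18, 26 of 26 and 9 of 10 members with Trdc and without Trac. Trbc transcripts therefore do not show by themselves which receptor a member carried. Trdc is not exclusive to gamma delta T cells in these libraries, since 32.8, 29.1 and 27.6% of NK and ILC1 cells held it. It lies at chr14:54142851-54148868 on the plus strand of GRCm38, ahead of Trac at chr14:54220521-54224206.

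Gamma chain constant transcripts were widespread among the members and were not restricted to those with Trdc. At least 1 of the constant genes Tcrg-C1, Tcrg-C2 and Tcrg-C4, all on chromosome 13, was detected in 96, 101 and 87 members (60.0, 61.6 and 44.4%). These included 62, 57 and 36 of the members with Trac and without Trdc, and Trbc transcripts were found in 104 of 104, 93 of 93 and 94 of 98 of that set. With the 5% limit, 79 of 180 day 21 members (43.9%) held a gamma constant gene. Tcrg-C2 alone was detected in 35.6, 34.1 and 20.9% of members and in 0 of 67, 55 and 58 NK and ILC1 cells. The gamma constant genes are near-identical in part, so the assignment of reads among them is uncertain. A gamma constant transcript at 3′ resolution does not show that a productive gamma chain was made.

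**Figure D3:**
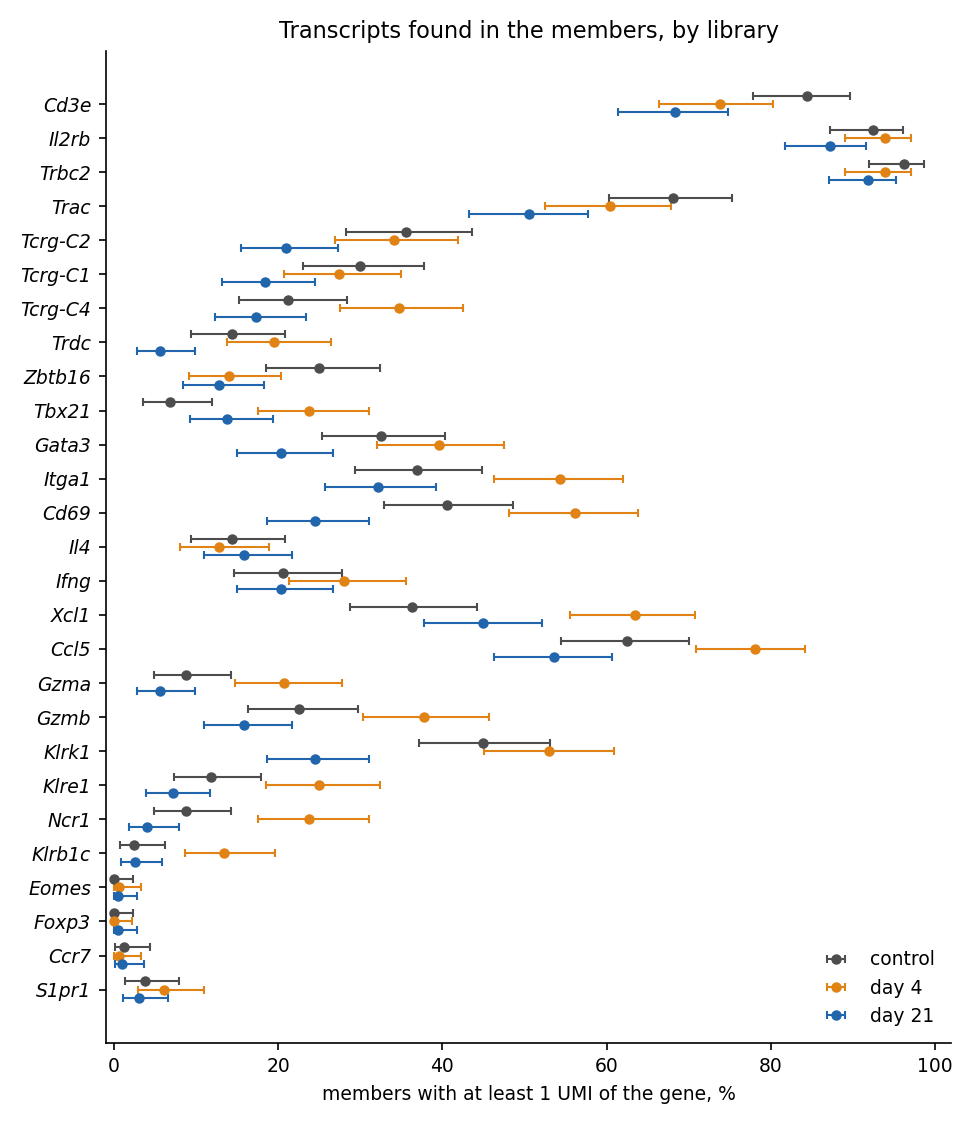
Percent of members with at least 1 UMI (x axis) of 27 genes grouped by receptor, regulator, natural killer receptor, residence and effector role, 1 point per library with 95% Clopper-Pearson intervals. Trbc2 and Il2rb are near the top of the scale in all 3 libraries, Eomes, Foxp3 and Ccr7 are near 0, and Ncr1 and Gzma are highest at day 4.

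The transcription factor of NKT cells, Zbtb16, was detected in 25.0% of control members (18.5 to 32.4), 14.0% at day 4 (9.10 to 20.3) and 12.8% at day 21 (8.43 to 18.3). After thinning the shares were 9.62, 3.68 and 8.38%, so the day 21 share lay near the control once depth was equal, while that of day 4 was lower on both scales. Under the 5% limit the day 21 share was 13.3%. In CD8 T cells it was found in 1.72, 3.30 and 3.12%, and in barcodes without T cell genes in 7.12, 5.05 and 0.72%. The invariant alpha chain segment Trav11 had 0 UMIs in all 520 members. A 3′ library reads mainly the constant end of a receptor transcript, so this 0 says nothing on the invariant receptor. Gata3, a factor of the helper type 2 programme that NKT cells also use, was found in 32.5, 39.6 and 20.4% of members, and Rora in 44.4, 40.9 and 29.1%. Tbx21, the gene of the type 1 factor T-bet, was found in 6.88, 23.8 and 13.8%, and in 3.85, 5.52 and 7.33% after thinning. Il17a, the gene of the type 17 cytokine, was found in 1 member at day 21 only.

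Il4, a type 2 cytokine that resting NKT cells hold as transcript, set the members apart from CD8 T cells and from NK and ILC1 cells, in which it had 0 UMIs in all libraries. It was detected in 14.4% (9.34 to 20.8), 12.8% (8.10 to 18.9) and 15.8% (11.0 to 21.7) of members, and in 8.75, 13.4 and 8.62% of CD4 T cells. After thinning, the member shares were 3.85, 5.52 and 8.90%, and the day 21 share was 15.6% under the 5% limit. The 75 members with Il4 held Ncr1 in 0 cells and Zbtb16 in 25.3%, Slamf6, a receptor needed for NKT cell selection, in 52.0%, Cd28, a costimulatory receptor, in 72.0% and Gzma in 2.67%. They had a median of 4342, 5439 and 1871 UMIs, above that of all members (3956.5, 4079 and 1827.5), and depth raises detection. Zbtb16 was in 25.0, 14.0 and 12.8% of all members, so its share alone does not set those with Il4 apart. The interferon gamma gene Ifng was found in 20.6, 28.0 and 20.4% of members, and Cd40lg, the ligand by which helper cells license antigen-presenting cells, in 22.5, 25.0 and 18.9%. Ccr7, a lymph node homing receptor of recirculating cells, was found in 1.25, 0.61 and 1.02%.

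A set of members carried Ncr1, which encodes the natural killer receptor NKp46 and lies at chr7:4337724-4345164 on the plus strand. This split was made after the data were seen, and its values are a description. Ncr1 was detected in 14 control members (8.75%, 4.87 to 14.2), 39 at day 4 (23.8%, 17.5 to 31.0) and 8 at day 21 (4.08%, 1.78 to 7.88). After thinning the shares were 5.13, 17.8 and 3.14%, so day 4 was highest on both scales. Under the 5% limit Ncr1 was found in 38 of 161 members at day 4 and 6 of 180 at day 21. Trbc transcripts were found in all 61, Trac in 3, 7 and 2 and Trdc in 7, 19 and 2. Of the members with Trdc and without Trac, 6 of 18, 18 of 26 and 2 of 10 held Ncr1.

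Over all libraries the 61 members with Ncr1 differed in level from the 459 without it. The cytotoxic proteases Gzma and Gzmb were at 6708 and 3040 CPM against 162 and 253, and the chemokines Ccl5 and Ccl4 at 10664 and 816 CPM against 1644 and 22.5. The signalling adaptors Tyrobp and Fcer1g were at 2088 and 1530 CPM against 227 and 203. In the other direction, Il4 had 0 UMIs against 52.7 CPM, Slamf6 was at 7.80 against 198 CPM, Cd28 at 74.1 against 291 and Cd40lg at 15.6 against 75.2. The members with Ncr1 thus had higher levels of these killing and adaptor genes, and those without it of the helper ligand, Il4 and Slamf6. The division was one of level: in the control, members without Ncr1 held 196 of the 289 Gzmb UMIs. Of the 61 members with Ncr1, 39 came from day 4, so the pooled contrast also mixes the libraries. T cell genes also differed: Cd3d was found in 47.5 against 85.4% of cells, Cd3e in 49.2 against 78.4%, Cd3g in 98.4 against 95.2% and Trbc1 in 80.3 against 56.9%. Eomes was found in 59.7, 49.1 and 51.7% of NK and ILC1 cells and in 1.64% of members with Ncr1. It is part of the gate for NK and ILC1 cells, so its share in them is raised by their selection. Whether these are T cells with natural killer receptors or ILC1 that carry Cd3g and Trbc transcripts cannot be told apart by the gate, which accepts Cd3g alone.

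The members were next compared with 3 other classes of the same libraries: T cells without Cxcr6, Cd4 and Cd8, CD8 T cells, and NK and ILC1 cells. Counts were summed per library and class and tested with edgeR's quasi-likelihood test with the library as a block and Benjamini-Hochberg adjustment over 6947 genes, with the 13 genes of the gates left out. The 3 libraries of different conditions serve as replicates here. Each library gave a sum to every class, and nothing in the labels says that they are separate cultures or litters, so the p-values measure only the spread between these 3.

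Against T cells without Cxcr6 (227, 139 and 678 cells), 343 genes were called (4.94% of genes tested), of which 126 were higher in the members (1.81%) and 217 lower (3.12%). The members had more of Socs2, Il4 and Ifng and of some type 1 and residence genes, and less of most genes of recirculating cells. Socs2, a feedback inhibitor of cytokine signalling, was at 328, 348 and 246 CPM in members and at 50.3, 24.3 and 9.74 CPM in T cells without Cxcr6 (log2 fold change 3.12, SE 0.317, edgeR adjusted p = 0.000136). The ranges did not overlap, which was so for 24.2% of all genes tested. Il4 was at 37.3, 35.2 and 70.9 CPM in members against 6.45, 3.74 and 4.38 CPM (2.65, adjusted p = 0.00474 by edgeR). Ifng was at 59.7, 107 and 104 CPM against 16.8, 26.2 and 4.38 CPM (2.31, adjusted p = 0.00115 by edgeR). Members were higher than T cells without Cxcr6 in every library for both cytokines. Zbtb16 was higher by 2.28 (adjusted p = 0.00567, edgeR), as was Il2rb by 2.10 (adjusted p = 0.00567). Cxcr3, a receptor for interferon-induced chemokines, was higher by 2.55 (adjusted p = 0.00236, edgeR), and the gamma constant gene Tcrg-C1 by 3.20 (adjusted p = 0.0026). Itga1, the alpha chain of the collagen-binding integrin CD49a of tissue-resident lymphocytes, was at 187, 231 and 185 CPM against 64.5, 101 and 28.0 CPM (1.26, adjusted p = 0.00474 by edgeR). Others among the 8 largest differences were Edaradd, Spin2c, Btbd11, Art2b, an ADP-ribosyltransferase of the T cell surface, and Ccr9, a gut-homing chemokine receptor. The day 21 class without Cxcr6 held 478 cells above 5% other-cell transcripts, which enter its CPM values. With such cells left out of all classes, Socs2 differed by 2.49 (SE 0.222) and Tcrg-C1 by 2.61. Il4, Ifng, Zbtb16, Il2rb, Cxcr3 and Itga1 were still called higher.

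Recirculation genes made up the other side of that comparison. Ccr7 was at 2.99, 2.71 and 3.73 CPM in members and at 404, 284 and 36.3 CPM in T cells without Cxcr6 (log2 fold change -6.36, SE 0.523, edgeR adjusted p = 0.000123). S1pr1, the receptor by which lymphocytes leave tissue, was at 14.9, 20.3 and 13.1 CPM against 312, 260 and 25.8 CPM (-3.72, adjusted p = 0.000997 by edgeR). Klf2, the factor that drives S1pr1, differed by -2.89 (adjusted p = 0.000123, edgeR). Of 11 recirculation genes tested, 8 were lower in the members and 0 higher, among them Ccr7, S1pr1, Klf2, Klf3, Lef1, Dapl1 and Igfbp4, with a median of -2.57. Of 12 type 1 genes 5 were higher (Tbx21, Il2rb, Ifng, Cxcr3 and Il12rb2), and of 12 residence genes 5 were higher (Itga1, Prdm1, Rgs1, Bhlhe40 and P2rx7), with 0 lower in either list. Of 10 cytotoxic genes 3 were higher (Nkg7, Ctsw and Fasl). Neutrophil transcripts moved with this comparison: they summed to 4106, 27639 and 441151 CPM in T cells without Cxcr6, and S100a8 differed by -7.09. With cells above 5% other-cell transcripts left out the S100a8 difference was 0.09, 673 genes were called (10.5%), Ccr7 of T cells without Cxcr6 was at 336 CPM at day 21, 11 of the 11 recirculation genes were lower and Ccr7 differed by -6.72. Counts moved with single libraries, from 343 calls to 120 without day 4 and 580 without day 21. Socs2, Ccr7 and Ifng kept their calls in all alternatives in which they were tested. Il2rb, Art2b, Edaradd, Btbd11 and Spin2c lost their calls without day 4, Ccr9 without day 4 or day 21, and Itga1 without day 4 or the control. With the library term left out, these 7 genes and also Il4, Zbtb16 and Tcrg-C1 lost their calls. Itga1 and Spin2c lost theirs too when only the 2 classes compared were fitted.

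Against CD8 T cells (116, 91 and 96 cells), 176 genes were called (2.53% of genes tested), of which 80 were higher in the members (1.15%) and 96 lower (1.38%). Cd40lg and Il4, genes of helper T cells, and the cytokine feedback gene Socs2 were among the largest differences. CD4 T cells, in which Il4 was also detected, were not among the classes fitted. Cd40lg was at 59.7, 67.7 and 76.5 CPM in members and 1.99, 2.36 and 6.83 CPM in CD8 T cells (log2 fold change 4.19, edgeR adjusted p = 0.0132). Il4 had 89 UMIs over the members and 0 over the CD8 T cells, so it was at least 18.6-fold higher against a floor of 3 counts over the class (adjusted p = 0.00364, edgeR). Socs2 was at 7.95, 7.09 and 17.1 CPM in CD8 T cells and higher in members by 4.78 (SE 0.408, adjusted p = 4.92e-05 by edgeR). Podnl1, a small leucine-rich proteoglycan, was at 191, 237 and 164 CPM against 11.9, 16.5 and 3.41 CPM (4.01, adjusted p = 0.000102 by edgeR). None of these ranges overlapped, as for 21.1% of all genes tested. Ifng was higher by 3.04, Zbtb16 by 2.88, Il2rb by 2.13, Cxcr3 by 2.11 and Gata3 by 1.75 (edgeR adjusted p = 0.00226, 0.0126, 0.0115, 0.0151 and 0.0158). Ddx43, a helicase gene, Rab27b, a regulator of vesicle release, Dkkl1 and the stress kinase gene Ern1 were also among the 8 largest differences. Of the 9 cytokine and death ligand genes tested, 6 were higher (Ifng, Tnf, Il4, Csf1, Cd40lg and Fasl) and 0 lower, with a median of 2.00.

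Recirculation genes were again lower. Of 11 tested, 10 were lower than in CD8 T cells, among them Ccr7 (-7.12), S1pr1 (-3.91) and Il7r, the receptor of the survival cytokine IL-7 (-1.75). Their edgeR adjusted p-values were 4.92e-05, 0.00226 and 0.0132. Nsg2, a neuronal vesicle protein gene, had 0 UMIs in members and was at least 21.8-fold lower. Tdrp (-5.19), Tmem108, St8sia1, a ganglioside-making sialyltransferase, and the class II antigen-presentation gene H2-Eb1 were also among the 8 lowest. Of 12 residence genes 4 were higher, among them Prdm1, Bhlhe40 and P2rx7, and 1 was lower, with a median of 0.55, and Itga1 was not called (0.56, adjusted p = 0.293, edgeR). Of 10 cytotoxic genes 1 was called, Fasl, a death ligand, with a median of 0.38, and Gzma differed by 0.08 (adjusted p = 0.988, edgeR). The number of calls moved strongly with the libraries: it was 176 with all, 10 without the control, 15 without day 4 and 648 without day 21. Socs2, Ccr7, Dapl1 and Podnl1 kept their calls in all alternatives run, whereas Cd40lg, Il2rb, Zbtb16, Ifng, Il7r, Nsg2, Ddx43, Rab27b, Dkkl1, Ern1, Tmem108 and H2-Eb1 lost theirs both without the control and without day 4. Il4 and Tdrp lost theirs without the control, and S1pr1 and St8sia1 without day 4. With cells above 5% other-cell transcripts left out, 689 genes were called (10.8%). Neutrophil transcripts summed to 3.97, 9.46 and 39372 CPM in CD8 T cells, against 2.99, 287 and 77625 CPM in members. With those cells left out, 4 of 6 stellate cell genes tested were called higher in the members (median 2.36) and 5 of 9 endothelial genes lower (median -0.95), and their part in the comparison was not tested.

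Against NK and ILC1 cells (67, 55 and 58 cells), 226 genes were called (3.25% of genes tested), of which 111 were higher in the members (1.6%) and 115 lower (1.66%). This gate required 0 UMIs of the T cell genes, so differences in antigen receptor genes follow in part from the choice of cells. Tcrg-C2 had 288 UMIs in members and 0 in NK and ILC1 cells (at least 28.0-fold higher), Cd40lg 131 and 0 (at least 12.7-fold) and Il4 was at least 8.65-fold higher. Of 15 antigen receptor signalling genes, 6 were higher, among them Lat, Lcp2, Cd5, Cd6 and Themis. Of 12 residence genes 3 were higher (Cd69, Itga1 and P2rx7) and 0 lower, with a median of 0.11. Cd69, which retains lymphocytes in tissue, was higher by 2.29 (adjusted p = 0.00959, edgeR) and Itga1 by 1.31 (adjusted p = 0.0119). Il7r and Ltb, a lymphotoxin chain, were higher by 1.64 and 1.41 (edgeR adjusted p = 0.0354 and 0.00272). Trat1, an adaptor of the T cell receptor, Izumo1r, a folate receptor family member of T cells, Edaradd, Fam169b and Actn2 had 0 UMIs in NK and ILC1 cells and were at least 9.23, 6.80, 5.54, 3.89 and 3.60-fold higher. Of 10 cytotoxic genes tested 4 were lower, among them Gzma, Prf1 and Nkg7, and 0 higher, with a median of -1.12. Gzma was at 582, 1736 and 595 CPM in members and 13215, 12303 and 7649 CPM in NK and ILC1 cells (-3.61, SE 0.578, adjusted p = 0.00325 by edgeR), and Prf1, perforin, at 74.6, 88.0 and 46.6 against 1181, 1180 and 646 CPM (-3.77, SE 0.459, adjusted p = 0.000578 by edgeR). Neither gene's ranges overlapped, as for 19% of all genes tested. Cma1, a mast cell type protease gene also found in NK cells, differed by -7.66 and S1pr5, a trafficking receptor of NK cells, by -5.97, with Serpinb9b, a granzyme inhibitor, Scimp, Adamts14, Phactr3, Clip4 and Aoah also among the lowest. Of 14 NK receptor and adaptor genes, 9 were lower and 1 higher, Klra5. Klra genes are close copies, so their reads may be split. Il2rb, Zbtb16 and Ifng were not called, with differences of 0.38, 1.08 and 0.96 (edgeR adjusted p = 0.757, 0.322 and 0.231). The count of 226 calls was 17 without the control, 62 without day 4 and 519 without day 21, and 620 (9.7%) with cells above 5% other-cell transcripts left out. Neutrophil transcripts summed to 4.94, 15.2 and 6326 CPM in NK and ILC1 cells, below the members at day 4 and day 21, and 2 of 9 neutrophil genes were called higher in the members (median 3.45). Cma1 kept its call in all alternatives run, and Gzma, Tcrg-C2, Il4, Trat1 and Adamts14 lost theirs without the control. Cd69, Itga1, Il7r, Cd40lg, Izumo1r, Edaradd, Fam169b, Actn2, S1pr5, Scimp and Aoah lost theirs both without the control and without day 4, and Phactr3 without day 4.

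**Figure D4:**
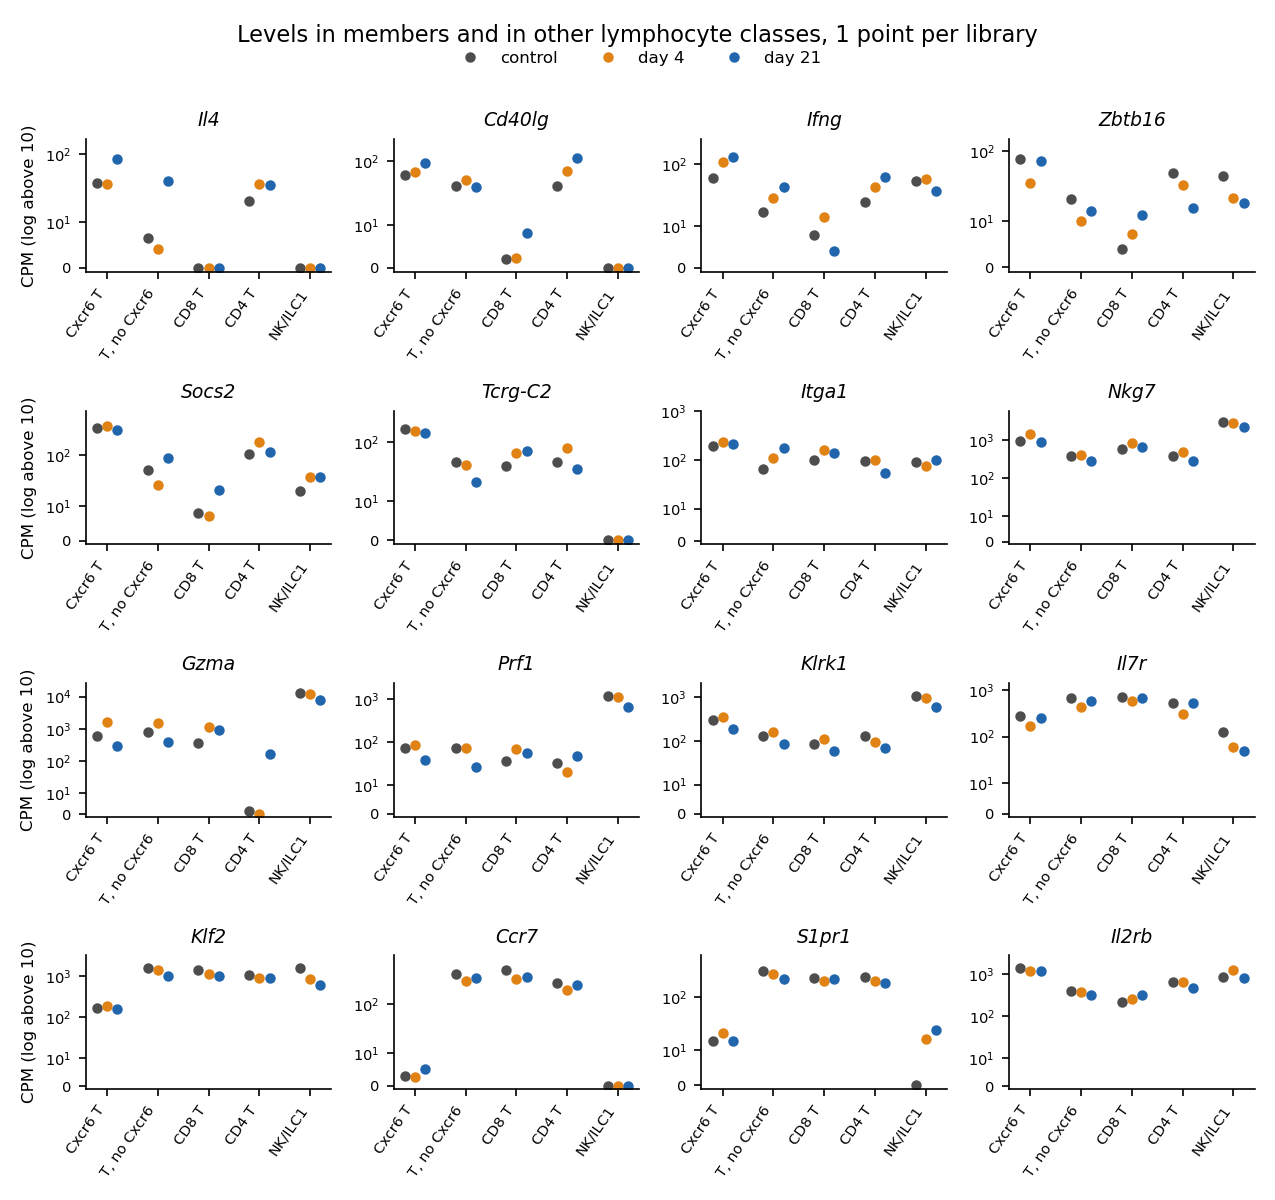
Level in CPM (y axis, log scale above 10) of 16 genes in 5 classes of cells, 3 points per class for the control, day 4 and day 21 libraries, with cells above 5% other-cell transcripts left out. Members sit with NK and ILC1 cells near 0 for Ccr7, with T cells far below them for Gzma, and above all other classes for Socs2.

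At day 4 the members had more chemokine, type 1 and DNA replication transcripts than in the control and less of Zbtb16 and of glucocorticoid-responsive genes. Of 6789 genes with 20 UMIs or more, 431 (6.35%) were 2-fold or more apart, 240 higher (3.54%) and 191 lower (2.81%), and the median log2 ratio was 0.02. Ratios are of the CPM of counts summed over members, with 0.5 counts added, and the intervals cover counting error only. Of the genes chosen by size, Ccl4, a chemokine for macrophages and T cells, was at 13.4 CPM in control members and 261 in day 4 members (log2 ratio 4.21, 3.33 to 5.43). Xcl1, which attracts cross-presenting dendritic cells, was at 182 and 737 CPM (2.01, 1.73 to 2.31). Tnfsf14, the ligand LIGHT, was at 8.96 and 44.7 CPM (2.22, 1.04 to 3.86), and it was detected in 3.12 and 16.5% of members. Fam111a, a protease linked to replication forks, was at 7.46 and 48.7 CPM (2.59, 1.35 to 4.41), and Tial1, an RNA-binding protein gene, at 22.4 and 81.2 CPM (1.82, 1.02 to 2.78). The others were Plcl2 (2.09), Nxt1 (2.09) and Lsm10 (2.07). On the lower side, Cxcr4, the receptor for the retention chemokine CXCL12, was at 74.6 and 20.3 CPM (-1.85, -2.82 to -1.02), and Map3k8, a kinase of inflammatory signalling, at 80.6 and 24.4 CPM (-1.70). Others were Pqlc3 (-2.06), Pofut2 (-1.91), Slc25a40 (-1.62), Ptdss1 (-1.61) and Smurf2 (-1.61).

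By gene list, the type 1 programme was higher: 10 of 13 measured genes were above 0 and 5 at least 2-fold higher, with 0 lower and a median of 0.83. Tbx21 was at 20.9 and 58.2 CPM (1.44, 0.58 to 2.46), Cxcr3 at 151 and 334 (1.14, 0.81 to 1.50) and Ifng at 59.7 and 107 (0.83, 0.27 to 1.43). Il2rb differed by -0.21. Of 8 cytotoxic genes 2 were at least 2-fold higher, Gzma at 582 and 1736 CPM (1.57, 1.41 to 1.74) and Gzmb at 431 and 1064 CPM (1.30, 1.11 to 1.50), while Prf1 differed by 0.23 and Fasl by -0.03. The granzymes, which enter target cells, were thus higher without a like difference in perforin, which opens them. Of 13 NK receptor and adaptor genes 5 were at least 2-fold higher, led by the receptor gene Klre1 at 43.3 and 142 CPM (1.70, 1.11 to 2.36) and the adaptor Tyrobp at 188 and 589 CPM (1.64). Cd160, a receptor for HVEM, was at 109 and 281 CPM (1.36). Residence genes moved little, with 0 of 10 past 2-fold and a median of 0.23, Cd69 at 146 and 238 CPM (0.70, 0.34 to 1.07) and Itga1 at 0.31. The 8 recirculation genes also had 0 past 2-fold, with a median of -0.05.

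Of the 10 listed genes of the NKT programme, 4 had enough UMIs at day 4, of which 1 was at least 2-fold lower and 0 higher. Zbtb16 was at 76.1 and 33.8 CPM (-1.16, -1.92 to -0.45) and Slamf6 at 276 and 142 CPM (-0.96). Sh2d1a, the adaptor of the Slamf6 family, differed by -0.01, and the median of the 4 was -0.93. Il4 was at 37.3 and 35.2 CPM (-0.09, -0.93 to 0.77), an interval that allows a difference of nearly 2-fold either way. Il7r was at 276 and 168 CPM (-0.72, -1.06 to -0.38). Of 8 type 17 genes 2 were at least 2-fold lower, Blk, a Src-family kinase of type 17 gamma delta T cells, by -2.40 and Ltb4r1, a leukotriene receptor, by -1.51. Type I interferon-stimulated genes were higher in 14 of 15, 5 of them at least 2-fold, with Isg15, a ubiquitin-like protein, at 38.8 and 112 CPM (1.51), Ifit3 at 1.90 and a median of 0.44. Interferon gamma-inducible genes had 0 of 15 past 2-fold and a median of 0.36. Glucocorticoid-responsive genes were lower in 11 of 11, 3 of them at least 2-fold, including the kinase Sgk1 (-1.36) and the clock gene Per1 (-1.27), with Txnip, an inhibitor of thioredoxin, at 2196 and 1206 CPM (-0.86). The time of day of collection was not stated.

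S phase genes were higher in 15 of 16, with 9 at least 2-fold and a median of 1.10, and Tyms, which makes thymidylate, was higher by 1.54. Rrm2, a ribonucleotide reductase subunit, had 3 UMIs in 2 control members and 44 UMIs in 9 day 4 members (3.53, 2.09 to 6.06), so few cells carried this signal. G2/M genes did not move with them: 1 of 12 was at least 2-fold higher and 2 lower, the median was 0.06, and Mki67, a marker of cycling cells, was at 166 and 104 CPM (-0.67) and in 6.88 and 7.93% of members.

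The day 4 differences were given again without members that held Ncr1, since their share was highest at day 4. This alternative, 146 control against 125 day 4 members, was chosen after the data were seen. The granzymes and Ccl4 no longer differed upward: Gzma was at 186 and 177 CPM (-0.07, -0.47 to 0.33), Gzmb at 319 and 254 CPM (-0.33, -0.65 to -0.01) and Ccl4 had 5 and 3 UMIs (-0.55, -3.32 to 1.73). The medians of the cytotoxic and NK receptor lists were 0.05 and 0.19, and that of the type 1 list 0.16. Xcl1 was at 122 and 277 CPM (1.17, 0.77 to 1.59), a smaller difference than over all members. Cxcr3 at 155 and 348 CPM (1.17), Tbx21 at 22.8 and 54.3 (1.22) and Tnfsf14 (2.48) differed about as much as before. Zbtb16 was at 83.1 and 38.5 CPM (-1.09) and Slamf6 at 302 and 184 CPM (-0.71). In the same members 6 of 6 stellate cell genes and 6 of 7 endothelial genes were at least 2-fold lower (medians -3.79 and -2.01). The part of such transcripts in the lower genes was not tested. The S phase median was 1.37, the type I interferon median 0.51 and the glucocorticoid median -0.69, with 0 of 11 genes of the last above 0. The upward differences in Gzma, Gzmb and Ccl4 at day 4 were therefore absent without the Ncr1-bearing members. Differences in Cxcr3, Tbx21, Zbtb16, replication and interferon genes were also present without them. The split cannot tell a larger share of Ncr1-bearing members from a higher level within them. In members with Trac and without Trdc, of which 2 and 6 held Ncr1, Gzma was also higher at day 4 (3.86, 3.07 to 4.89).

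**Figure D5:**
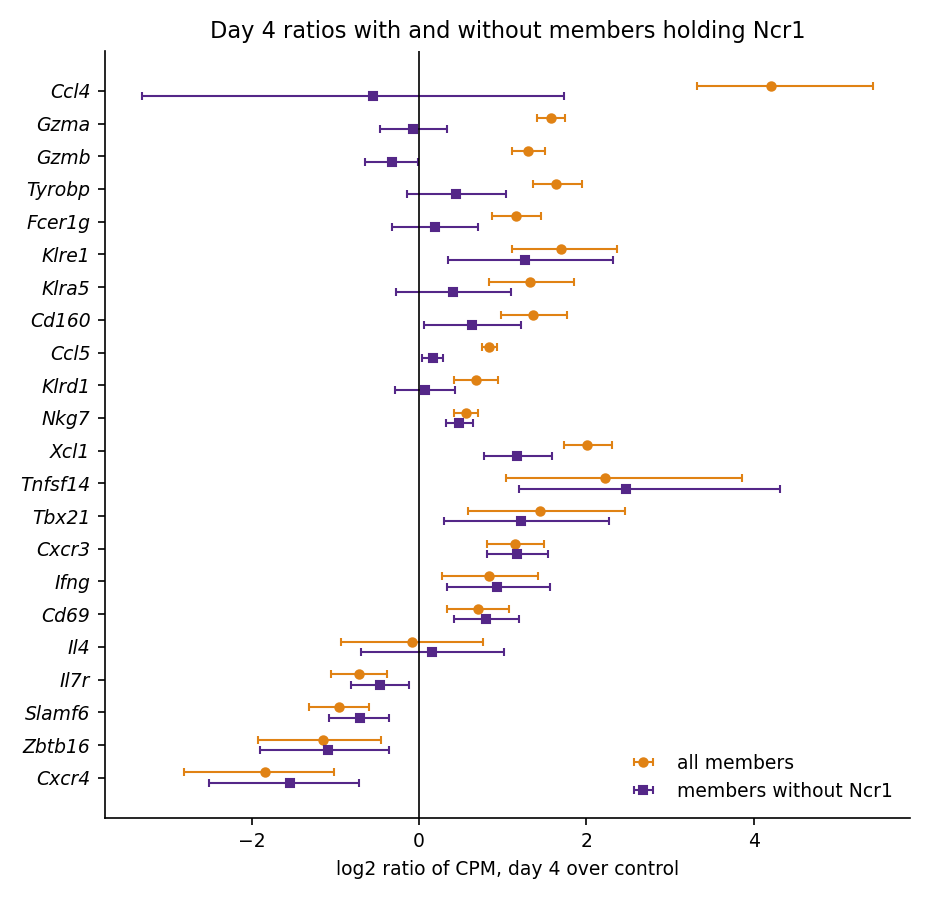
Log2 ratio of day 4 over control (x axis) for 22 genes, with 95% intervals for counting error, over all members (160 and 164 cells) and over members without Ncr1 (146 and 125 cells). Gzma, Gzmb and Ccl4 lie at 1.57, 1.30 and 4.21 over all members and at -0.07, -0.33 and -0.55 without Ncr1, whereas Cxcr3, Tbx21 and Zbtb16 keep their places.

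At day 21, 861 of 6448 genes (13.4%) were 2-fold or more from the control, 459 higher (7.12%) and 402 lower (6.23%), and the median log2 ratio was -0.07. Age and time since injection cannot be told apart here, since the day 21 mice were older. Neutrophil genes led the higher side. S100a8 had 0 UMIs in control members and was at 32545 CPM at day 21, at least 7267-fold higher against a floor of 3 counts. S100a9, its partner, was at 1.49 and 35676 CPM, from 1 and 19130 UMIs. The granule protein genes Ngp, Camp, Lcn2 and Ltf, the secreted factor Retnlg and the membrane protein Ifitm6 followed, each at least 242-fold higher. These highest genes are known products of neutrophils. On the lower side were Lars2 at 941 and 186 CPM (-2.33), Mup3, Klrb1f (-2.19), Rbm48, Polr3d, Slc25a40, Brms1 and Sdhaf1. As 16 members held most of the neutrophil transcripts, the comparison was repeated with members at or below 5% other-cell transcripts. In those, 441 of 6172 genes (7.15%) were at least 2-fold higher and 246 (3.99%) lower, with a median of 0.07. The neutrophil list still summed to 2365 CPM against 2.99 in the control, monocyte and dendritic cell genes to 1707 against 491 CPM, Kupffer cell genes to 229 against 41.8 CPM and B cell genes to 174 against 37.3 CPM. All 3 Kupffer cell genes with enough UMIs were at least 2-fold higher (median 3.18), and the part of such transcripts in the results was not tested.

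In these 180 members the genes highest by size were Gse1 at 16.4 and 72.3 CPM (2.10, 1.09 to 3.29), Nrros (2.05), Tial1 at 22.4 and 92.2 (2.01), Zbtb7b, the factor ThPOK that directs helper lineage and NKT cell function, at 17.9 and 72.3 (1.98, 0.997 to 3.12), and Ccr9 at 19.4 and 74.8 (1.91, 0.96 to 3.01). Arl4d (1.88), Nup153 (1.88) and Fam193b (1.81) completed the 8. The lowest with ample UMIs was Lars2, a mitochondrial leucyl-tRNA synthetase, at 941 and 229 CPM (-2.03, -2.37 to -1.72). Klrb1f, an NK-type lectin receptor, was at 71.7 and 19.9 CPM (-1.77, -3.14 to -0.75). Mup3, a hepatocyte urinary protein, was at 46.3 and 2.49 CPM, the latter from 1 UMI (-3.65, -9.56 to -1.63). Rbm48, an RNA-binding protein gene, had 32 and 3 UMIs (-2.48, -5.03 to -0.999). The others were Sdhaf1, Galnt11, Polr3d and Brms1, between -1.90 and -1.79.

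Of 13 type 1 genes, 2 were at least 2-fold higher and 2 lower over all day 21 members, with a median of 0.67. In members at or below 5% other-cell transcripts 6 were at least 2-fold higher and 2 lower, with a median of 0.91 and 8 above 0. In those members, Ccl4 was at 13.4 and 92.2 CPM (2.72, 1.70 to 4.02), Tbx21 at 20.9 and 69.8 (1.71), Cxcr3 at 151 and 336 (1.16, 0.77 to 1.54), Ifng at 59.7 and 130 (1.11, 0.50 to 1.75) and Xcl1 at 182 and 389 (1.09, 0.74 to 1.45). The IL-12 receptor chains were lower, Il12rb1 by -1.39 and Il12rb2 by -1.35. Il4 was at 37.3 and 84.7 CPM (1.18, 0.40 to 1.99), and over all members the ratio was 0.92 (0.16 to 1.71). Both a type 1 and a type 2 cytokine were thus at higher levels per UMI. Tnfsf14 was at 8.96 and 47.3 CPM (2.32). Of the 10 cytokine and ligand genes measured in all members 1 was at least 2-fold higher, and with the limit 5 were, with medians of 0.62 and 0.88. Zbtb16 was at 76.1 and 72.3 CPM (-0.06, -0.79 to 0.61), whereas Slamf6 was at 276 and 107 CPM (-1.35, -1.88 to -0.88).

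Killing genes were not higher at day 21. Gzma was at 582 and 294 CPM (-0.98, -1.30 to -0.68) with the limit and 595 CPM over all members (0.03), and 0 of 8 cytotoxic genes passed 2-fold on either basis. Of 12 NK receptor and adaptor genes 3 were at least 2-fold lower with the limit, Klrb1f, Klrc1 (-1.03) and Klrc2 (-1.01), and Tyrobp, which neutrophils also express, was at 0.91 against 1.82 over all members. Trdc was at 219 and 89.7 CPM (-1.28, -1.86 to -0.76). Residence genes had 0 of 11 at least 2-fold higher and 1 lower, Ahr, the aryl hydrocarbon receptor, at 59.7 and 22.4 CPM (-1.35). Recirculation genes had 0 of 7 past 2-fold. Immediate early genes, which respond within minutes to receptor or handling stimuli, were higher in 17 of 19, with Fos at 20.9 and 87.2 CPM (2.03, 1.13 to 3.07), Egr1 at 79.1 and 239 (1.59, 1.10 to 2.11) and a median of 0.69. Of 8 heat shock chaperone genes 4 were at least 2-fold higher, led by Dnajb1 (1.66) and Hsph1 (1.30). The median mitochondrial share was 8.88% in the control and 10.0% at day 21, and the part of dissociation in these genes was not tested. Glucocorticoid-responsive genes had a median of -0.67, with Ddit4, an inhibitor of mTORC1, at 98.5 and 32.4 CPM (-1.56). The interferon gamma receptor chain Ifngr1 was at 691 and 254 CPM (-1.44), and of 15 interferon gamma-inducible genes 2 were at least 2-fold higher, Irf1 at 61.2 and 154 CPM (1.33) and the GTPase Igtp (1.28). Type I interferon genes had 0 of 11 past 2-fold and a median of -0.06.

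Day 4 and day 21 share the control library, so their ratios to it are not independent, and both were set against each other directly in members at or below 5% other-cell transcripts. Of 6282 genes, 353 (5.62%) were at least 2-fold higher at day 21 and 195 (3.1%) lower, with a median of 0.06. Ncr1 and some genes that were higher in members with Ncr1 were lower at day 21. Gzma was at 1664 and 294 CPM (-2.50), Gzmb at 1001 and 279 (-1.84), Ccl4 differed by -1.52 and Ncr1 was at 373 and 32.4 CPM (-3.48). Ccl4 went the other way in members without Ncr1. In those, with no limit on other-cell transcripts, it was higher at day 21 than at day 4 (3.30) and than in the control (2.76). Of 11 NK receptor and adaptor genes 6 were at least 2-fold lower, with a median of -1.42. Zbtb16 was at 34.7 and 72.3 CPM (1.05, 0.24 to 1.89), Il4 differed by 1.22 (0.45 to 2.03) and Cxcr4 was at 20.8 and 64.8 CPM (1.62). Cxcr3, Tbx21, Ifng and Tnfsf14 differed little, by -0.02, 0.23, 0.25 and 0.06. Of 14 type I interferon genes 2 were at least 2-fold lower and 1 higher (median -0.70), and of 17 S phase genes 3 were lower and 0 higher (median -0.40). Members at both times after injection thus had like levels of Cxcr3, Tbx21 and Tnfsf14, while granzyme and Ncr1 transcripts were highest at day 4 and Il4 was highest at day 21.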

How the data were processed

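Per the file headers, the authors deposited raw UMI counts for 31053 genes per barcode, made with Cell Ranger 3.1.0; the submitters' processing notes name mm10. The kit was the 10x single cell 3′ v2 chemistry, per the labels. The sources used here give no later filter, and the smallest barcode held 500 UMIs. Positions came from GENCODE on GRCm38, in which 30934 gene IDs were found. No batch is named. Replicate numbers are not given, and the library is the block because each library supplies every class.

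Members and classes were gated on the deposited counts. Scrublet (Scanpy 1.11.5) scored doublets, which were left in and removed only as an alternative. Shares carry exact Clopper-Pearson intervals, ratios of shares a log risk ratio interval and ratios of levels an exact conditional binomial interval. A fold against 0 counts uses a floor of 3 counts over the class. Classes were tested with edgeR 4.0.16 (R 4.3.3; filterByExpr, TMM), with DESeq2 1.42.0 as an alternative. Python 3.11.15 ran the rest, with NumPy 2.4.6 for sums, SciPy 1.17.1 for intervals and pandas 2.3.3. The scripts were tested on simulated data.

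Named genes were the 8 largest and 8 smallest log2 ratios with at least 30 UMIs, an interval excluding 0, detection in 10% of members and at least 0.5 of the level outside T cells, or the 8 largest and smallest class differences at an adjusted p under 0.05 with 1 direction in 3 libraries. Mitochondrial, ribosomal protein, haemoglobin, immunoglobulin, unnamed and gate genes were left out. Members of 34 gene lists were also described, 11 of them for other cells. The members and lists were chosen with earlier results of these data known. A few named genes and list members are not reported here.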

Additional observations from a re-analysis of the deposited data

How the results depend on the processing

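Depth and 1 library per group limit these results: no test between conditions was possible, and genes under 20 UMIs were not compared. The member share of kept cells at day 21 over control (0.543) stayed below 1 in all alternatives run. It was 0.356 with a mitochondrial limit of 10% and 0.418 with Trac required and Trdc absent. When only members with under 3 other-cell marker UMIs were counted, over all kept cells, it was 0.305. As a share of T cells the ratio was 0.751 over all members. It was above 1 with at most 5% other-cell transcripts (1.28), after thinning (1.35) and with at least 3 T cell gene UMIs (1.03). Counts of genes at least 2-fold apart at day 4 (431 of 6789) were 122 of 1688 after thinning and 181 of 2159 with under 3 other-cell UMIs. They were 162 at a minimum of 40 UMIs and 3952 at 1 UMI. At day 21 (861 of 6448) they were 176 of 1728, 170 of 1319, 400 and 4858. The number of genes measured differed between these settings, so the counts are not comparable alone. Tbx21 turned to -0.67 at day 4 with under 3 other-cell UMIs. Klrb1f turned to 0.35 at day 21 with under 3 other-cell UMIs. Without Ncr1, Ccl4, Gzma and Gzmb were at -0.55, -0.071 and -0.33 at day 4. Of values for single genes, 664 kept their place within counting error at day 4 and 117 moved, against 573 and 207 at day 21.

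Class calls were 343, 176 and 226 against T cells without Cxcr6, CD8 T cells, and NK and ILC1 cells. They were 939, 399 and 464 of 16586 genes with no filter on low counts, and 172, 696 and 430 when only the 2 classes compared were fitted. With at most 5% other-cell transcripts they were 673, 689 and 620. Without the replicate block, which pairs the classes of 1 library, they were 22, 29 and 73. Leaving out 1 library gave 120 to 580, 10 to 648 and 17 to 519. After thinning, the first count was 211 of only 1526 genes tested (13.8%), against 4.94% without thinning. DESeq2 gave 250, 161 and 198. S100a8, Camp, S100a9 and Ltf turned to 0.093, 0.14, 0.062 and 1.63 against T cells without Cxcr6 with at most 5% other-cell transcripts, and Gzmb to -0.92 against CD8 T cells after thinning. The cause of these shifts was not tested.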
